A study of Homo sapiens with 8 samples.

Results

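Messenger RNA levels of 39 genes that encode RNA polymerase II (Pol II) and its general transcription factors were compared in LNCaP cells after inhibition of cyclin-dependent kinases, of O-GlcNAc transferase (OGT), or of both. The members were the rows of the deposited table of normalised counts whose gene symbol is on a list of 12 Pol II subunits, 15 genes of TFIID (TBP and its associated factors), 7 genes of TFIIA, TFIIB, TFIIE and TFIIF, and 5 genes of the TFIIH core. All 39 symbols were found among the 55737 genes of the table. All 39 also averaged 10 or more normalised counts across the 8 libraries, the minimum for a test, so none was left out. GTF2H4 lay close to that minimum, with 7.61 to 23.7 normalised counts, and its reads may be shared with VARS2, which overlaps it on the same strand.

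LNCaP is a human prostate carcinoma line. Cells were held for 4 hours with both agents (Combination), with 0.5 µM AT7519 alone, with 40 µM OSMI-2 alone, or under a control condition (Control) whose vehicle the labels do not name, and each of the 4 groups had 2 libraries. AT7519 inhibits several cyclin-dependent kinases, CDK9 among them, and OSMI-2 blocks OGT, which puts single N-acetylglucosamine sugars (O-GlcNAc) on proteins of the nucleus and cytoplasm. Both doses follow the design text of the series; in the treatment label the same figures stand in mM. The title of the series names dependence on CDK9 under OGT inhibition as the question. The data come from 1 cell line, and nothing in the labels says that the libraries of a group came from separate cultures, so p-values measure the spread between libraries, which may be technical.

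The number of reads in genes lay between 60152710 and 154367238 per library. The luminal prostate markers were high in every library (KLK3 at 93640 to 156700 normalised counts, FOLH1 at 112400 to 172700), and KRT5, TP63, PTPRC, CD3E and COL1A2 stayed under 4 normalised counts. KRT14, a basal marker, stood at 39.99 to 103.9 and SYP, a neuroendocrine marker, at 58.88 to 99.45 normalised counts. COL1A1, a fibroblast marker, stood at 1814 to 3726 and VWF, an endothelial marker, at 1132 to 1506 normalised counts, and PECAM1 was not found. The 13 mRNAs of the mitochondrial genome took 7.33% to 7.73% of the reads in Combination libraries, 6.57% to 7.04% with AT7519, 4.99% to 5.53% with OSMI-2 and 4.45% to 4.69% in Control. Normalised counts are relative within a library, so a lower level of an mRNA can reflect less of it or more of the other RNA, and in bulk RNA fewer expressing cells and less RNA per cell cannot be told apart.

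Pol II transcribes the protein-coding genes of the nucleus. To start, TFIID binds the core promoter through TBP and its TAFs, TFIIA and TFIIB stabilise TBP on DNA and position the polymerase, TFIIF escorts Pol II, and TFIIE brings in TFIIH, whose helicases open the DNA and whose kinase, CDK7, phosphorylates the C-terminal domain of the largest Pol II subunit. CDK9, the kinase of P-TEFb, then releases the polymerase from its pause near the promoter, and that C-terminal domain is also a known carrier of O-GlcNAc.

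The members moved in both directions under AT7519, and so did each of the 4 classes. On the deposited scale 9 Pol II subunits rose, among them the 5 shared with Pol I and Pol III, as did TAF6, TAF10, TAF13 and TAF15, and all of these turned negative when scaled to mitochondrial mRNAs. POLR2A, POLR2D, TBP, TAF1, TAF3, TAF5, TAF8, GTF2B, GTF2A1, GTF2E1 and GTF2H1 fell. With AT7519 against Control, limma called 17 members higher and 13 lower at a Benjamini-Hochberg adjusted p below 0.05, against a background of 26.0% higher and 27.2% lower (53.2% in either direction) among the 19393 genes tested. The median log2 change was 0.14 over the members and -0.0042 over all genes tested. With the Combination against Control, 15 members were higher and 13 lower, against 26.3% and 27.6% of all genes, or 53.9% in either direction, and the medians were -0.057 over the members and 0.022 over all genes. These comparisons share the Control libraries.

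The rises depended on the scale, and most of the falls were called on all 5 scales. The scales that moved the median of all genes furthest moved it down, so they put the rises to a harder test than the falls. When the libraries were scaled to equal sums of the 13 mitochondrial mRNAs, the median of all genes moved to -0.91 for AT7519 against Control and to -0.95 for the Combination against Control, and the calls became 0 higher and 34 lower with AT7519 (1.97% and 75.6% of all genes) and 0 higher and 38 lower with the Combination (2.19% and 75.2%). Scaled to equal totals, the calls were 7 higher and 18 lower with AT7519 (10.5% and 43.1% of all genes) and 6 higher and 21 lower with the Combination (13.7% and 38%). Quantile normalisation gave 14 higher and 14 lower with AT7519 (27.3% and 23.7% of all genes) and 10 higher and 15 lower with the Combination (29.4% and 24.8%). On all 5 scales 11 members were called lower with AT7519 (21.2% of all genes), namely GTF2E1, TAF8, TAF5, GTF2A1, TAF1, TAF3, GTF2H1, TBP, POLR2A, POLR2D and GTF2B. GTF2H2 and TAF4 joined these 11 with the Combination, which makes 13 (21.5% of all genes). No member was higher on all 5 scales. On the 4 scales other than the mitochondrial one, 7 were higher with AT7519 (9.73% of all genes) and 6 with the Combination (13.2%). Equal upper quartiles moved the median of all genes to 0.16 for the Combination and equal totals moved it to -0.23, and to -0.34 for AT7519. On the mitochondrial scale the fit took the spread of each gene from the trend over all genes alone, so its counts of calls are less certain than those on the other scales. Whether the mitochondrial mRNAs or the other mRNAs changed per cell was not tested.

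**Figure D1:**
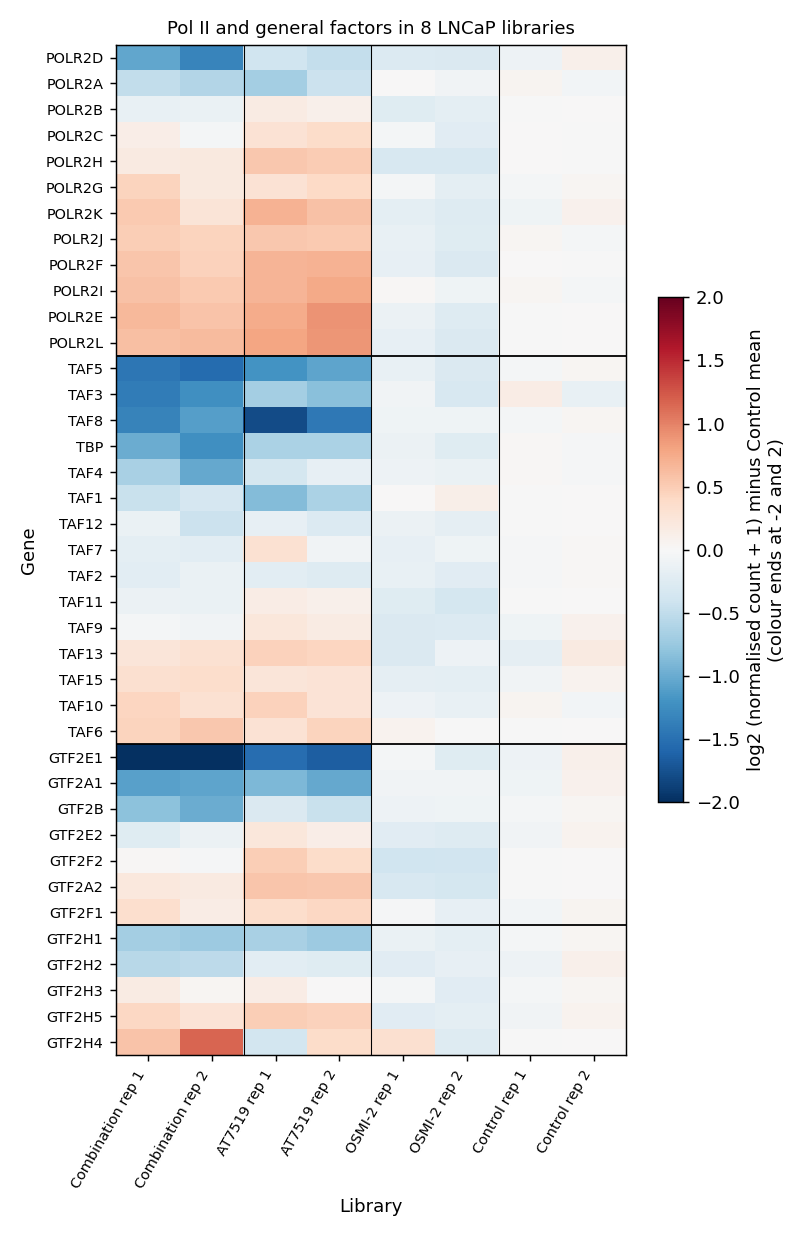
Heat map of the 39 members (rows, in 4 classes divided by black lines) in the 8 libraries (columns), as log2 of the normalised count plus 1 minus the mean of the Control libraries. GTF2E1 has the deepest blue, in both Combination libraries, and POLR2E, POLR2F, POLR2I and POLR2L are red in the Combination and AT7519 libraries on the deposited scale (all 4 turn negative when scaled to mitochondrial mRNAs), while POLR2A and POLR2D are blue there.

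Of the 12 Pol II subunits, 9 rose and 2 fell with AT7519 (26.0% and 27.2% of all genes), and 8 rose and 2 fell with the Combination (26.3% and 27.6%). Their medians were 0.53 with AT7519 and 0.36 with the Combination, against -0.0042 and 0.022 over all genes, and every one of these rises turned negative on the mitochondrial scale. The 5 subunits that Pol II shares with Pol I and Pol III (POLR2E, POLR2F, POLR2H, POLR2K and POLR2L) rose in both comparisons on the deposited scale.

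POLR2A encodes RPB1, the catalytic subunit that carries the C-terminal domain. It had 9381 and 8814 normalised counts in the Combination libraries, 8266 and 9826 with AT7519, 13269 and 12584 with OSMI-2, and 13694 and 12699 in Control. The libraries that received AT7519, alone or with OSMI-2, lay below every library without it, and the Combination libraries lay within the range of the AT7519 libraries. POLR2A fell by 0.55 on the log2 scale with AT7519 (SE 0.09, adjusted p = 0.000154) and by 0.54 with the Combination (SE 0.09, adjusted p = 0.000175). The addition of OSMI-2 to AT7519 moved it by 0.013 (SE 0.09, adjusted p = 0.945).

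POLR2B encodes RPB2, the other large subunit, which completes the active site with RPB1. Its normalised counts were 26128 and 26589 in the Combination libraries, 32638 and 31239 with AT7519, 24630 and 25314 with OSMI-2, and 28836 and 29333 in Control. On the deposited scale it was called neither with AT7519 (log2 change 0.14, adjusted p = 0.11) nor with the Combination (log2 change -0.14, adjusted p = 0.0922). POLR2B was called lower on equal totals (-0.21 with AT7519 and -0.40 with the Combination) and after quantile normalisation (-0.23 and -0.40). The mitochondrial scale also gave lower calls (-0.78 and -1.12), and equal upper quartiles a higher call with AT7519 (0.17). Between those groups it was lower in Combination libraries, by 0.28 on the log2 scale (SE 0.07, adjusted p = 0.0114). That call was lost when scaled to equal totals (adjusted p = 0.0509) or upper quartiles (0.0703) and after quantile normalisation (0.0836), and also without AT7519 replicate 1 (adjusted p = 0.0705), Combination replicate 1 (0.0552) or Combination replicate 2 (0.0567).

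POLR2D encodes RPB4, a subunit of the stalk. It had 2391 and 1966 normalised counts in the Combination libraries, 3731 and 3528 with AT7519, 4090 and 4049 with OSMI-2, and 4585 and 5287 in Control. The 4 groups did not overlap and stood in that order, lowest with both agents. POLR2D fell by 0.44 with AT7519 (SE 0.11, adjusted p = 0.00331) and by 1.18 with the Combination (SE 0.11, adjusted p = 6.2e-07), which is 2.27-fold lower than Control. The AT7519 call was lost without Control replicate 2, and the Combination call was made on every scale and without any of the libraries left out in turn. OSMI-2 alone gave -0.28, which was not called (adjusted p = 0.192).

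The largest rise was that of POLR2L, on the deposited scale. POLR2L, which encodes the zinc-binding RPB10 shared by all 3 nuclear polymerases, had 15991 and 16404 normalised counts in the Combination libraries, 18243 and 19508 with AT7519, 9371 and 8628 with OSMI-2, and 10420 and 10644 in Control. The libraries that received AT7519 were above every other library on the deposited scale. Its log2 change was 0.84 with AT7519 (SE 0.08, adjusted p = 8.29e-07) and 0.62 with the Combination (SE 0.08, adjusted p = 9.91e-06), against -0.075 and -0.36 when scaled to mitochondrial mRNAs.

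POLR2E, for the shared subunit RPB5, had 21450 and 20285 normalised counts in the Combination libraries and 22804 and 25426 with AT7519, against 12629 and 11484 with OSMI-2 and 13584 and 13824 in Control. POLR2I, for RPB9, which acts in transcript cleavage and fidelity, had 4974 and 4785 in the Combination libraries and 5305 and 5648 with AT7519, against 3365 and 3142 with OSMI-2 and 3437 and 3222 in Control. POLR2F, for the shared subunit RPB6, had 4537 and 4225 in the Combination libraries and 4923 and 5019 with AT7519, against 2762 and 2511 with OSMI-2 and 3116 and 3051 in Control. In all 3 genes the libraries with AT7519 were above those without it, with log2 changes against Control of 0.81, 0.72 and 0.69 in the same order with AT7519 and of 0.61, 0.55 and 0.51 with the Combination, and each sign turned on the mitochondrial scale.

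POLR2K, for the shared subunit RPB12, had 12802 and 10678 normalised counts in the Combination libraries, 14411 and 13438 with AT7519, 7791 and 7511 with OSMI-2, and 8398 and 9526 in Control. POLR2J, for RPB11, had 6234 and 6000 in the Combination libraries, 6420 and 6328 with AT7519, 3987 and 3716 with OSMI-2, and 4549 and 4280 in Control. POLR2H, for the shared subunit RPB8, had 8671 and 8750 in the Combination libraries, 11150 and 10887 with AT7519, 6169 and 6115 with OSMI-2, and 7679 and 7648 in Control. POLR2H thus went up with AT7519, down with OSMI-2, and stood between with both agents, and its rise with the Combination was marginal (log2 change 0.19, adjusted p = 0.0492) and lost when any 1 of the Combination, OSMI-2 or Control libraries was left out (adjusted p of 0.0707 to 0.145). The rises of these 3 genes turned negative on the mitochondrial scale, and that of POLR2H under the Combination did so with equal totals as well. Reads of POLR2J may be shared with its near copies POLR2J2, POLR2J3 and POLR2J4. The remaining subunits were POLR2G, for RPB7, higher in both comparisons (log2 changes 0.34 with AT7519 and 0.33 with the Combination), and POLR2C, for RPB3, at 0.049 with the Combination (adjusted p = 0.681) and called higher with AT7519 (0.33, adjusted p = 0.00793). The POLR2G call with the Combination was lost without Combination replicate 1, where the change was 0.20 (adjusted p = 0.144), and without Control replicate 1 (0.0833), and that of POLR2K without Combination replicate 1, where it was 0.26 (0.0616), and without Control replicate 1 (0.0536). On equal totals as on the mitochondrial scale, the AT7519 changes of POLR2C and POLR2G turned negative. The AT7519 call of POLR2G was also lost after quantile normalisation (adjusted p = 0.0627), and without Control replicate 1 (log2 change 0.295) or AT7519 replicate 2 (0.284). On equal totals POLR2J lost its call with AT7519 (adjusted p = 0.0752), and POLR2G and POLR2K lost theirs with the Combination (0.609 and 0.282).

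**Figure D2:**
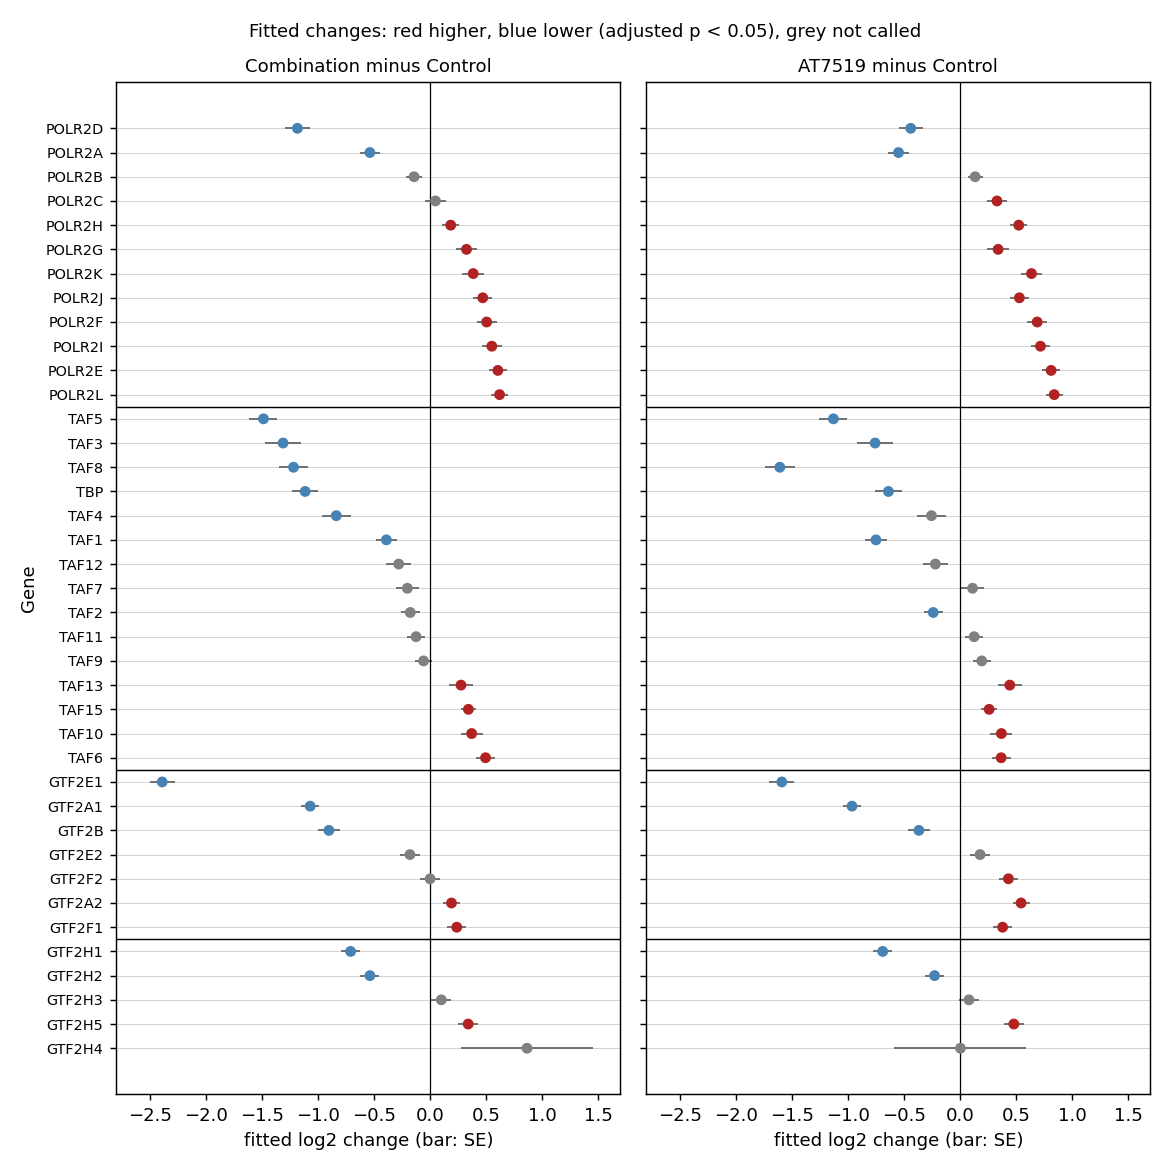
Fitted log2 change (points) with its standard error (bars) for each member, Combination minus Control in the left panel and AT7519 minus Control in the right panel, coloured by call at an adjusted p below 0.05. Changes run between -2.39 for GTF2E1 and 0.87 for the barely expressed GTF2H4 with the Combination, and each class holds both red and blue points on the deposited scale.

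Of the 15 TFIID genes, 4 rose and 6 fell in each of the comparisons of AT7519 and of the Combination with Control, where 26.0% and 26.3% of all genes rose and 27.2% and 27.6% fell. The falls were TBP, TAF1, TAF3, TAF5 and TAF8 in both, and TAF2 passed the threshold with AT7519 (log2 change -0.24, adjusted p = 0.0293) and TAF4 with the Combination. The TAF2 call was lost with equal upper quartiles (adjusted p = 0.0521), after quantile normalisation (0.053) and without Control replicate 1 (0.0653), Control replicate 2 (0.144) or AT7519 replicate 2 (0.101). The rises, on the deposited scale, were TAF6, TAF10, TAF13 and TAF15 in both comparisons, and all 4 turned negative on the mitochondrial scale. TAF15 did so after quantile normalisation and, under AT7519, on equal totals as well. On equal totals TAF10 and TAF13 lost their calls in both comparisons, and TAF15 lost that with the Combination. TAF13 lost its call without Control replicate 1, at 0.10 with the Combination (adjusted p = 0.491) and 0.26 with AT7519 (0.0596). TAF10 lost its call without Control replicate 2 with the Combination (0.0556) and with AT7519 (0.0576), and without AT7519 replicate 1 (0.0528), and TAF15 lost that with AT7519 without Control replicate 1 (0.0758).

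TBP, which binds the TATA box and serves all 3 nuclear polymerases, had 849.9 and 722.2 normalised counts in the Combination libraries, 1089 and 1089 with AT7519, 1571 and 1436 with OSMI-2, and 1724 and 1670 in Control. The groups did not overlap, and the Combination was lowest. TBP fell by 0.64 with AT7519 (SE 0.12, adjusted p = 0.000415) and by 1.11 with the Combination (SE 0.12, adjusted p = 2.66e-06). It was also lower with the Combination than with AT7519, by 0.48 on the log2 scale (adjusted p = 0.0131), a call that was lost without Combination replicate 2 (adjusted p = 0.115).

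TAF1 encodes the largest TAF, the scaffold of TFIID that binds acetylated histones. It had 3948 and 4236 normalised counts in the Combination libraries, 2948 and 3437 with AT7519, 5399 and 5779 with OSMI-2, and 5329 and 5383 in Control. The Combination libraries lay between the AT7519 and the Control libraries. TAF1 fell by 0.75 with AT7519 (SE 0.10, adjusted p = 1.52e-05) and by 0.39 with the Combination (SE 0.10, adjusted p = 0.00311).

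TAF8, which helps TFIID assemble and pairs with TAF10 through a histone fold, had 847.9 and 988.4 normalised counts in the Combination libraries, 617.5 and 790.1 with AT7519, 1998 and 2018 with OSMI-2, and 2081 and 2182 in Control. With GTF2E1 close behind, it had the largest fall of the 39 members under AT7519, a log2 change of -1.61 (SE 0.13, adjusted p = 3.94e-07), which is 3.05-fold lower. Of all genes tested, 5.78% had a more negative change. With the Combination the fall was 2.33-fold (log2 change -1.22, SE 0.13, adjusted p = 3.17e-06).

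TAF5, a scaffold subunit with WD40 repeats, had 540.3 and 507.0 normalised counts in the Combination libraries, 637.8 and 703.7 with AT7519, 1326 and 1200 with OSMI-2, and 1432 and 1504 in Control. Its log2 change was -1.13 with AT7519 (SE 0.13, adjusted p = 4.4e-06) and -1.49 with the Combination (SE 0.13, adjusted p = 2.95e-07). TAF3, which reads methylated lysine 4 of histone H3 through a PHD finger, had 293.2 and 331.9 in the Combination libraries, 483.1 and 434.2 with AT7519, 737.9 and 623.1 with OSMI-2, and 862.7 and 696.9 in Control. Its log2 change was -0.76 with AT7519 (SE 0.16, adjusted p = 0.0012) and -1.31 with the Combination (SE 0.16, adjusted p = 1.02e-05). In both genes the Combination libraries were lowest and did not overlap those with AT7519 alone. TAF5 was not called between these groups (log2 change -0.36, adjusted p = 0.0599). TAF3 was called lower with the Combination than with AT7519 (-0.55, adjusted p = 0.0279). That call was lost on equal totals (adjusted p = 0.0596) and equal upper quartiles (0.0639). It was also lost without AT7519 replicate 1 (log2 change -0.48), Combination replicate 1 (-0.46) or Combination replicate 2 (-0.64).

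TAF4, which forms a histone-fold pair with TAF12, had 1041 and 804.2 normalised counts in the Combination libraries, 1285 and 1460 with AT7519, 1519 and 1491 with OSMI-2, and 1659 and 1610 in Control. It fell by 0.84 with the Combination (SE 0.13, adjusted p = 9.13e-05). The change of -0.26 with AT7519 alone was not called on the deposited scale (adjusted p = 0.119). TAF4 was called lower with AT7519 on equal totals (-0.60) and on the mitochondrial scale (-1.17). TAF6, the histone-fold partner of TAF9, had 7201 and 7681 in the Combination libraries, 6463 and 7155 with AT7519, 5530 and 5252 with OSMI-2, and 5244 and 5302 in Control. Its log2 change was 0.37 with AT7519 (adjusted p = 0.00219) and 0.50 with the Combination (adjusted p = 0.000193), against -0.48 for the Combination when scaled to mitochondrial mRNAs. The TAF6 call with AT7519 was lost on equal totals (0.024, adjusted p = 0.838). TAF15, an RNA-binding protein of the FET family, was the most abundant member, with a mean of 67311 ± 1095 normalised counts with the Combination, 63587 ± 1257 with AT7519, 46547 ± 563.8 with OSMI-2 and 53139 ± 3559 in Control (SD, n = 2 each). Its coding neighbours AP2B1, RASL10B and C17orf50 overlap it on the same strand in GENCODE 29, and those of TAF9 and TAF7 are AK6 and SLC25A2. TAF7, TAF9, TAF11 and TAF12 were called in neither comparison with Control on the deposited scale, where their log2 changes lay between -0.28 and 0.19. On equal totals each was called lower with the Combination (-0.54 to -0.32), as were TAF11 and TAF12 with AT7519 (-0.22 and -0.56). On the mitochondrial scale each was called lower in both comparisons. TAF9 was called higher with AT7519 on equal upper quartiles (0.23), and TAF7 lower with the Combination after quantile normalisation (-0.29).

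**Figure D3:**
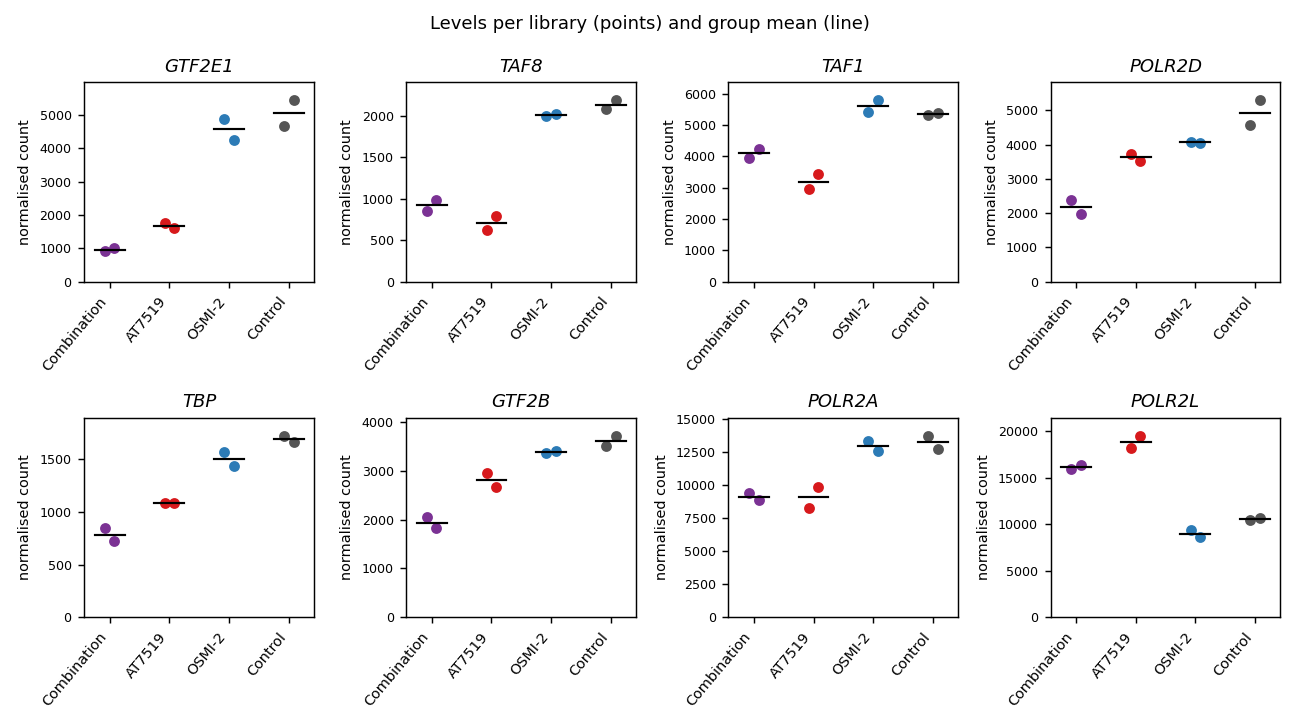
Normalised counts per library (points) with group means (lines) for 8 members, each panel with its axis from 0. GTF2E1, POLR2D, TBP and GTF2B are lowest in the Combination libraries, TAF8 and TAF1 are lowest with AT7519 alone, POLR2A has overlapping low values in both, and POLR2L is highest with AT7519 alone on the deposited scale.

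Of the 7 genes for TFIIA, TFIIB, TFIIE and TFIIF, 3 rose and 3 fell with AT7519 (26.0% and 27.2% of all genes). With the Combination 2 rose and 3 fell (26.3% and 27.6% of all genes). The genes that fell were GTF2E1, GTF2A1 and GTF2B in both comparisons. The rises with the Combination were GTF2A2 and GTF2F1, and that of GTF2A2 (log2 change 0.19, adjusted p = 0.0434) turned negative on equal totals and on the mitochondrial scale and was lost when any 1 of the Combination, OSMI-2 or Control libraries was left out (adjusted p of 0.0622 to 0.141).

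GTF2E1 encodes the alpha subunit of TFIIE, which recruits TFIIH. It had 919.6 and 1003 normalised counts in the Combination libraries, 1746 and 1603 with AT7519, 4886 and 4236 with OSMI-2, and 4676 and 5427 in Control. Each step down left no overlap, except that the OSMI-2 and Control libraries overlapped. GTF2E1 fell 3.01-fold with AT7519 (log2 change -1.59, SE 0.11, adjusted p = 1.18e-07). It fell 5.24-fold with the Combination (log2 change -2.39, SE 0.11, adjusted p = 4.13e-09), the largest change of any member, with 1.95% of all genes changed more negatively. Over the 5 scales its log2 change lay between -2.51 and -1.44 with AT7519 and between -3.37 and -2.18 with the Combination.

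GTF2A1, the gene for the large precursor that is cut into the alpha and beta chains of TFIIA, had 10640 and 10778 normalised counts in the Combination libraries, 11998 and 11058 with AT7519, 21417 and 21325 with OSMI-2, and 21134 and 23900 in Control. Its log2 change was -0.96 with AT7519 (SE 0.08, adjusted p = 4.02e-07) and -1.07 with the Combination (SE 0.08, adjusted p = 1.11e-07). GTF2A2, for the gamma chain of the same factor, had 8364 and 8192 in the Combination libraries, 10615 and 10527 with AT7519, 5810 and 5656 with OSMI-2, and 7231 and 7257 in Control. It was higher than Control with AT7519 (log2 change 0.55, SE 0.08, adjusted p = 3.21e-05, but -0.37 when scaled to mitochondrial mRNAs). The chains of TFIIA therefore changed in opposite directions on the deposited scale.

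GTF2B encodes TFIIB, the single protein that bridges TBP and the polymerase. It had 2056 and 1825 normalised counts in the Combination libraries, 2958 and 2664 with AT7519, 3363 and 3408 with OSMI-2, and 3521 and 3724 in Control. The order was that of POLR2D, with no overlap between groups. GTF2B fell by 0.37 with AT7519 (SE 0.10, adjusted p = 0.00625), a call that was lost without Control replicate 2 (adjusted p = 0.0561), and by 0.90 with the Combination (SE 0.10, adjusted p = 3.51e-06).

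GTF2F2, for the small subunit of TFIIF, had 3724 and 3627 normalised counts in the Combination libraries, 5190 and 4733 with AT7519, 2795 and 2810 with OSMI-2, and 3653 and 3693 in Control. It was higher with AT7519 (log2 change 0.43, adjusted p = 0.000834, with the sign turned on the mitochondrial scale) and lower with OSMI-2. On equal totals GTF2F2 lost its call with AT7519 (0.089, adjusted p = 0.397). With both agents it was at the Control level on the deposited scale (log2 change 0.0013, adjusted p = 0.995). Its Combination change was called lower on equal totals (-0.26, adjusted p = 0.0197) and on the mitochondrial scale (-0.98). GTF2F1, for the large subunit of TFIIF, was called higher in both comparisons on the deposited scale (0.38 with AT7519 and 0.24 with the Combination) and negative in both on the mitochondrial scale. The Combination change of GTF2F1 was also negative on equal totals (-0.020), and its call was lost after quantile normalisation (adjusted p = 0.198), without Control replicate 1 (0.175) and without Combination replicate 1, where the change was 0.15 (0.247). With AT7519 its call was lost on equal totals (0.743) and after quantile normalisation (0.121). GTF2E2, for the beta subunit of TFIIE, was called in neither on the deposited scale (log2 changes 0.18 and -0.18). It was called lower with the Combination on equal totals (-0.44), and in both comparisons on the mitochondrial scale (-0.74 with AT7519 and -1.16 with the Combination).

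In the TFIIH core, GTF2H1, for the p62 subunit that docks TFIIE, had 3264 and 3170 normalised counts in the Combination libraries, 3349 and 3168 with AT7519, 4802 and 4572 with OSMI-2, and 5119 and 5397 in Control. It fell by 0.69 with AT7519 (SE 0.09, adjusted p = 1.41e-05) and by 0.71 with the Combination (SE 0.09, adjusted p = 9.45e-06). GTF2H2, for the p44 subunit, had 6185 and 6341 in the Combination libraries, 7840 and 7674 with AT7519, 7783 and 8129 with OSMI-2, and 8475 and 9727 in Control. Its fall was called in both comparisons (log2 changes -0.23 with AT7519 and -0.54 with the Combination). With AT7519 the call was lost with equal upper quartiles (adjusted p = 0.0697) and when any of AT7519 replicate 1, AT7519 replicate 2, OSMI-2 replicate 1, OSMI-2 replicate 2 or Control replicate 2 was left out, and without Control replicate 2 the change was -0.13 (adjusted p = 0.321). Reads of GTF2H2 may be shared with the near copies GTF2H2B, GTF2H2C and GTF2H2D. GTF2H5, for the small stabilising subunit, was higher on the deposited scale and negative on the mitochondrial one (0.48 with AT7519 and 0.34 with the Combination as deposited). Both calls were lost on equal totals (0.14 with AT7519, adjusted p = 0.202, and 0.082 with the Combination, adjusted p = 0.455). The Combination call was also lost without Control replicate 1, where the change was 0.28. GTF2H3 was called in neither on the deposited scale. It was called lower with AT7519 on equal totals (-0.26) and higher with the Combination on equal upper quartiles (0.24). On the mitochondrial scale GTF2H3 was called lower in both (-0.84 and -0.88). GTF2H4 was too low to judge, with 15.4 and 23.7 normalised counts in the Combination libraries, 7.61 and 13.2 with AT7519, 12.8 and 8.29 with OSMI-2, and 10 and 10.1 in Control.

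Ratios of partner subunits within a library do not change when each library is multiplied by a factor of its own, as in all of the scales used except quantile normalisation. They were formed from normalised counts per transcript length for 12 pairs of proteins that contact each other in the complexes, and the pairs were listed after the values had been seen. The member already known to fall was often put on top, so a count of lower ratios follows in part from that choice and is a description. With AT7519, the ratio lay below both Control libraries in 9 of 12 pairs and overlapped in 3, and with the Combination it lay below in 10 of 12 and above in 2. No background was computed for ratios and they were not tested.

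The widest shift was within TFIIE. The ratio of GTF2E1 to GTF2E2 was 0.15 and 0.15 in the Combination libraries, 0.205 and 0.202 with AT7519, 0.793 and 0.699 with OSMI-2, and 0.675 and 0.715 in Control, so it was 4.63-fold lower than Control with the Combination. The ratio of TAF8 to TAF10 was 0.043 and 0.0544 in the Combination libraries, 0.0307 and 0.0445 with AT7519, 0.147 and 0.153 with OSMI-2, and 0.137 and 0.155 in Control, 3.94-fold lower than Control with AT7519. Within TFIIA, the ratio of GTF2A1 to GTF2A2 was 0.319 and 0.33 in the Combination libraries, 0.284 and 0.264 with AT7519, 0.925 and 0.946 with OSMI-2, and 0.733 and 0.826 in Control. Under OSMI-2 alone this ratio was thus above Control, and under AT7519 it was 2.85-fold below.

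In the stalk of Pol II, the ratio of POLR2D to POLR2G was 0.0429 and 0.0418 in the Combination libraries, 0.075 and 0.0657 with AT7519, 0.102 and 0.114 with OSMI-2, and 0.116 and 0.125 in Control. All 4 groups were apart, and the Combination was 2.85-fold below Control and 1.66-fold below AT7519. The ratio of the 2 largest subunits, POLR2A to POLR2B, was 0.218 and 0.202 in the Combination libraries, 0.154 and 0.191 with AT7519, 0.328 and 0.302 with OSMI-2, and 0.289 and 0.263 in Control. TFIIF behaved otherwise, as the ratio of GTF2F1 to GTF2F2 was 2.87 and 2.6 in the Combination libraries, 2.09 and 2.39 with AT7519, 2.99 and 2.71 with OSMI-2, and 2.25 and 2.39 in Control, so the libraries with OSMI-2 stood above those without it.

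**Figure D4:**
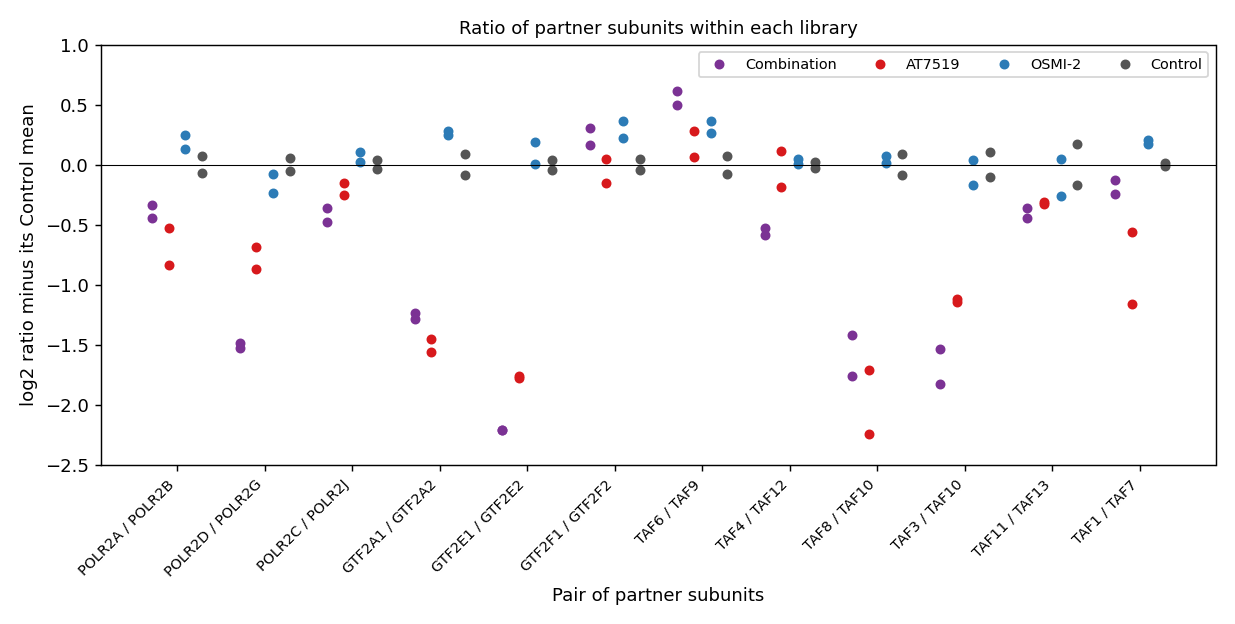
Log2 ratio of partner subunits in each library, minus its mean in Control, for 12 pairs (2 points per group). The Combination and AT7519 points lie below the Control points for most pairs, down to a mean of -2.21 for GTF2E1 over GTF2E2 with the Combination, while TAF6 over TAF9 and GTF2F1 over GTF2F2 lie above Control in the Combination libraries.

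The comparison of the Combination with AT7519 alone asks what the OGT inhibitor adds when the kinase inhibitor is present. Of the members, 16 were lower and 1 was higher, against 12.5% and 7.21% of all genes (19.7% in either direction), and the median log2 change was -0.21 over the members and -0.017 over all genes. The falls covered every class, with 4 Pol II subunits, 6 TFIID genes, 5 genes of TFIIA, TFIIB, TFIIE and TFIIF, and GTF2H2. GTF2E1 fell the most (log2 change -0.80, SE 0.11, adjusted p = 0.000385), then POLR2D (-0.74, SE 0.11, adjusted p = 0.000476) and TAF4 (-0.58, SE 0.13, adjusted p = 0.00747). GTF2B fell by 0.54 (SE 0.10, adjusted p = 0.00232). On all 5 scales 8 members were lower (6.62% of all genes), namely GTF2E1, POLR2D, TAF4, GTF2B, TBP, GTF2F2, GTF2A2 and POLR2H.

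TAF1 was the only member called higher in that comparison (log2 change 0.36, SE 0.10, adjusted p = 0.0168), and the call was lost without AT7519 replicate 1 (adjusted p = 0.129), without Combination replicate 2 (0.118) and on the mitochondrial scale (0.126). TAF8 stood at 0.39 and narrowly missed the threshold (adjusted p = 0.0535). The calls numbered 17 in all, and fewer without AT7519 replicate 1 or without Combination replicate 2, the shallowest library. Equal totals gave 2 higher and 9 lower (10.4% and 7.91% of all genes). Equal upper quartiles gave 2 higher and 8 lower (11.3% and 7.43%), and quantile normalisation 1 higher and 9 lower (7.09% and 7.5%). In limma without the mean-variance trend 0 higher and 2 lower calls were left (1.88% and 2.58% of all genes). TAF4 (adjusted p = 0.0725), TBP (0.0647) and GTF2B (0.0506) were among those lost. TAF4 and TBP also lost their calls without Combination replicate 2 (adjusted p = 0.0881 and 0.115).

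The comparison of the Combination with OSMI-2 alone shows the effect of AT7519 under OGT inhibition. Here 18 members were higher and 13 lower, against 27.5% and 27.3% of all genes (54.8% in either direction), and scaled to equal totals these became 8 higher and 18 lower (11% and 40.5% of all genes), and on the mitochondrial scale 0 higher and 32 lower (2.17% and 69.7%). The 13 that were lower were lower on all 5 scales (22.0% of all genes). GTF2E1 (-2.24), TAF5 (-1.27) and TAF8 (-1.13) fell the most. POLR2L (0.85), POLR2E (0.79) and POLR2F (0.73) rose the most on the deposited scale, and on the mitochondrial scale they stood at -0.004, -0.061 and -0.12.

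OSMI-2 alone moved the members little. Against Control, limma called 0 members higher and 3 lower, GTF2F2, GTF2A2 and POLR2H, where 0.645% of all genes were higher and 2.38% lower (3.02% in either direction). GTF2F2 fell by 0.39 (SE 0.09, adjusted p = 0.0314), GTF2A2 by 0.34 (SE 0.08, adjusted p = 0.0306) and POLR2H by 0.32 (SE 0.07, adjusted p = 0.0352). The members' median was -0.19, against -0.018 over all genes, and in 27 of 39 both OSMI-2 libraries lay below both Control libraries, as they did in 30.1% of all genes. An unadjusted p below 0.05 was reached by 17 members, a count for which no share of all genes was computed. All 3 calls were lost when either Control or either OSMI-2 library was left out, and also without the filter on low values, without the mean-variance trend, and when scaled to equal totals or upper quartiles. DESeq2 called 6 of the 38 members it tested lower, adding POLR2B, TAF9 and TAF11. It also called 8.23% of the 13377 genes it tested lower.

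The interaction, the effect of OSMI-2 with AT7519 minus its effect without AT7519, was called for 0 of 39 members by limma and by edgeR, against 1.04% of all genes in limma (0.0619% higher and 0.975% lower). For 7 members the unadjusted p was below 0.05, and no share of all genes was computed for that count. GTF2E1 came closest, with -0.65 (SE 0.16, adjusted p = 0.0689), and DESeq2 called it (adjusted p = 0.00297). Without AT7519 replicate 2 limma called it too (adjusted p = 0.0402). GTF2B followed, with -0.44 (SE 0.14, unadjusted p = 0.00757, adjusted p = 0.214). A difference between the effects of OSMI-2 in the presence and absence of AT7519 was thus not shown for the members by the limma fit.

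The members differ widely in gene structure. The span of the longest transcript in GENCODE 29 ran between 1.64 kb for POLR2I and 198 kb for TAF3. Of 12 members under 10 kb, 9 rose with AT7519 and 0 fell, where 40.1% of all coding genes of that span rose and 23.3% fell. Of 12 between 20 and 50 kb, 2 rose and 8 fell, against 28.5% and 29.9% of coding genes. With the Combination the counts were 8 and 0 under 10 kb (36.8% and 27% of coding genes), and 2 and 8 between 20 and 50 kb (28.6% and 33.5%). The 7 members over 50 kb did not continue this order, with 1 higher and 3 lower with AT7519 (17.2% and 39.3% of coding genes) and 0 and 3 with the Combination (18.3% and 40.4%), and their median with AT7519 was -0.24, against -0.46 between 20 and 50 kb. On the mitochondrial scale no member was higher in any span. Over the 39 members the Spearman correlation of span with log2 change was -0.59 for AT7519 and -0.62 for the Combination, against -0.20 and -0.16 over 12757 coding genes. That of spliced transcript length was -0.60 and -0.55 over the members and -0.33 and -0.26 over the coding genes. Span and length therefore cannot be told apart here. Nor can span and class, as POLR2C, POLR2E, POLR2G, POLR2H, POLR2I, POLR2J, POLR2K and POLR2L were all under 10 kb. POLR2A was the only Pol II subunit between 20 and 50 kb. The counts and correlations are descriptions across genes measured in the same libraries, and the number of members per class of span is small. GTF2F2, with 164 kb, was higher with AT7519, and POLR2D, with 14.6 kb, was lower.

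**Figure D5:**
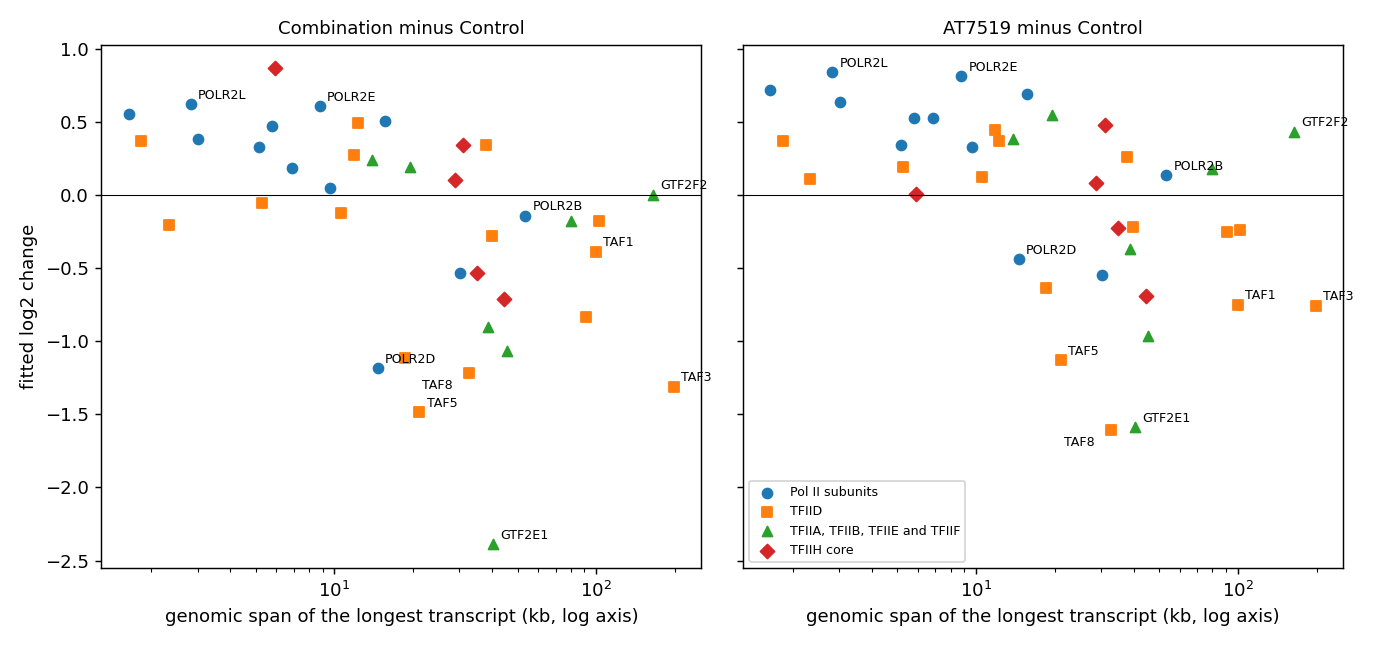
Fitted log2 change of each member against the genomic span of its longest GENCODE 29 transcript (kb, log axis), Combination minus Control in the left panel and AT7519 minus Control in the right panel, with symbols for the 4 classes. Members under 10 kb lie mostly above 0 on the deposited scale and those between 20 and 50 kb mostly below, with GTF2F2 and POLR2D standing off this order.

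Promoters are shown because members of the same complexes moved apart. RefSeq promoter sequences (GRCh38.p14) were matched by symbol for 31 of the 39 members, with 40 promoters. Each was searched on both strands in 300 bases, of which 50 follow the start, for TATAAA (the TATA box), CGGAAGT (bound by ETS factors), the NRF1 motif (GCGCA, any base N, GCGC) and TGACGTCA (the cyclic AMP response element), and matches to different motifs were counted separately. CGGAAGT was in 15 of 40 members' promoters (37.5%) and in 6.83% of all 35116 promoters. By gene it was held by 5 of 12 members that rose with AT7519, 4 of 11 that fell and 4 of 8 that were not called. The NRF1 motif was in 11 of 40 (27.5%, against 5.78% of all), held by 5 of 12 that rose, 1 of 11 that fell and 4 of 8 not called. TATAAA was found in GTF2B alone (2.5%, against 11.5% of all), between bases -29 and -24 before the start, and TGACGTCA in TAF10 alone (2.5%, against 1.85% of all). These matches are of letters, not of bound sites.

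The 250 bases before the start are given, 5′ to 3′ with the motif in capitals, for GTF2B as the promoter with a TATA box, chr1:88891568-88891817 (minus strand), and for TBP, chr6:170554119-170554368 (plus strand), which fell, and TAF13, chr1:109076004-109076253 (minus strand), which rose on the deposited scale, as promoters with CGGAAGT. GTF2E1, chr3:120742494-120742743 (plus strand), and POLR2L, chr11:842530-842779 (minus strand), the members with the largest fall under the Combination and the largest rise under AT7519 on the deposited scale, held none of the 4 motifs. All positions are those of GRCh38.p14.
GTF2B: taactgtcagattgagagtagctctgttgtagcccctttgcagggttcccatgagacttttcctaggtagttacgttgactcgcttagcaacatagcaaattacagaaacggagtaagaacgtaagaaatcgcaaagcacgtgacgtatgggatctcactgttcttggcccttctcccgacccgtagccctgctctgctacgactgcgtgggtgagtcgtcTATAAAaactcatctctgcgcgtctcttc
TBP: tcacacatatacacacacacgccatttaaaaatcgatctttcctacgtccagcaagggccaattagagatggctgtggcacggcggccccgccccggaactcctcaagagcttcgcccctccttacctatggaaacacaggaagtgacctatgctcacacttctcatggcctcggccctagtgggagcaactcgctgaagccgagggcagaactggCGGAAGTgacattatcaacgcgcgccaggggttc
TAF13: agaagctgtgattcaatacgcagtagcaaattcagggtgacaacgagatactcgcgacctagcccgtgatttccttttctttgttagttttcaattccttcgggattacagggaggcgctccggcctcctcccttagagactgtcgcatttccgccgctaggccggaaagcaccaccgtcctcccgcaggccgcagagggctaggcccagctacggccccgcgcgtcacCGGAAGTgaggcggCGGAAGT
GTF2E1: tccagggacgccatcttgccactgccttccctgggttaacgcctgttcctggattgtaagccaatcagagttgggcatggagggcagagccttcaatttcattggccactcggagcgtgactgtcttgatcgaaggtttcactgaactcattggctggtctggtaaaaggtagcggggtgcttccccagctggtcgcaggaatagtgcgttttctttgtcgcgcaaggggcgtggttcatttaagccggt
POLR2L: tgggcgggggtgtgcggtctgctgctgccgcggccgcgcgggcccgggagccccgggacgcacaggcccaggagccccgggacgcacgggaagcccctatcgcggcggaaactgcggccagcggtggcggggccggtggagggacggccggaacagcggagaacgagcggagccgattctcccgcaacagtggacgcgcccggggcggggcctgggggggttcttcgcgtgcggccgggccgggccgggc
The GC content of these 250 bases was 48.8% in GTF2B, 56% in TBP, 58.4% in TAF13, 54.4% in GTF2E1 and 79.2% in POLR2L.

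Genes that work beside the members also moved both ways on the deposited scale, whereas on the mitochondrial scale none of those in the 4 lists given here was called higher than in Control. Of the 5 genes for the TFIIH helicases and kinase module, CDK7, the kinase, fell and CCNH, its cyclin, rose with AT7519 (log2 change 0.61, but -0.31 on the mitochondrial scale). CDK7 averaged 1537 ± 368.9 normalised counts with the Combination, 2075 ± 286.6 with AT7519, 3373 ± 32.6 with OSMI-2 and 3685 ± 73.1 in Control (SD, n = 2 each), log2 changes against Control of -1.28 with the Combination and -0.84 with AT7519. With the Combination MNAT1, the assembly factor of that module, fell as well (log2 change -0.39, adjusted p = 0.00316).

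Of 12 regulators of TBP and factors of Pol II recycling, 6 rose and 5 fell with AT7519, and 4 rose and 4 fell with the Combination. Among all genes tested, 26.0% rose and 27.2% fell with AT7519, and 26.3% rose and 27.6% fell with the Combination. RPAP2 and CTDP1, phosphatases of the C-terminal domain, fell by 1.09 and 0.96 with AT7519 and by 1.13 and 1.02 with the Combination. DRAP1, a subunit of the TBP repressor NC2, rose with AT7519 (0.71, but -0.21 on the mitochondrial scale), as did the coactivator SUB1 (0.67, but -0.25). Of 10 genes for Pol II assembly, 7 rose and 0 fell with AT7519, and 2 rose and 1 fell with the Combination. With AT7519 the counts were 3 and 3 on equal totals (10.5% and 43.1% of all genes) and 0 and 9 on the mitochondrial scale (1.97% and 75.6%). The median of these assembly genes was 0.39 with AT7519 and 0.11 with the Combination. PIH1D1 led the rises on the deposited scale (0.65 with AT7519 and 0.47 with the Combination), and GPN2 was the fall with the Combination (-0.61). Of 16 paralogs of members 11 were tested, with 3 higher and 3 lower with AT7519 and 3 higher and 4 lower with the Combination. TBPL1, a TBP-like factor, had log2 changes of -0.66 with AT7519 and -1.32 with the Combination, and TAF4B, a TAF4 paralog, -0.63 and -1.29. The largest rises on the deposited scale were those of POLR2J3 (0.62 and 1.27) and POLR2J2 (0.52 and 0.88). On the mitochondrial scale POLR2J3 stood at -0.30 with AT7519 and 0.29 with the Combination, and POLR2J2 at -0.39 and -0.096.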

How the data were processed

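RNA sequencing libraries of LNCaP cells were made with a strand-specific kit, per the labels' protocols. The submitters' processing notes name STAR, HTSeq and DESeq2 with hg19 and GRCh37, and give neither their versions nor their roles, and the sources used here do not give the strand used for counting. The authors deposited 1 signal per gene and library, a read count divided by a size factor of that library. Each value was a whole multiple of its library's smallest step for 100% of values within 0.01, so counts of whole reads were recovered, and 28 unnamed lines were left out.

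The 19393 genes that averaged 10 or more normalised counts were tested. A limma fit (version 3.58.1, R 4.3.3, mean-variance trend, 4 residual and 10.1 prior degrees of freedom) of the 4 group means was made on log2(normalised count + 1), a scale that understates changes of low genes. Two-sided p-values received Benjamini-Hochberg adjustment across all genes of each comparison, with calls below 0.05. Alternatives were pseudocounts, filters, 4 other scales, no trend, edgeR 4.0.16 and DESeq2 1.42.0 on the recovered counts, a replicate block, and each library left out. A count of 3 reads equals 1.76 to 5.47 normalised counts.

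The members and lists were chosen with earlier results of these data known. POLR2A, POLR2B, TBP, TAF1 and GTF2B are given in any case, with the 6 largest called rises and falls against Control for AT7519 and the Combination, 3 each for other comparisons (for the interaction, the 2 smallest p-values), and up to 2 per list. GTF2H1, GTF2H2, GTF2E2, GTF2F1, GTF2H4, TAF15 and other members were added after their values were seen. Lengths and spans come from the longest transcript in GENCODE 29, promoters from RefSeq. The lists of Pol I, Pol III and Mediator genes are given with the other observations.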

Additional observations from a re-analysis of the deposited data

How the results depend on the processing

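With AT7519 against Control and with the Combination against Control or OSMI-2, the number of members called stayed within 1.5 times the reported number in all 20 alternatives. With OSMI-2 against Control the reported 3 calls, all lower, became 0 without a filter on low values (0.216% of all genes lower) and 0 when scaled to equal totals (0.608%). They became 0 when scaled to equal upper quartiles (0.794%), 0 in limma without the trend (0%) and 1 after quantile normalisation (1.44%). There were 5 when scaled to mitochondrial mRNAs (6.05%) and 6 with DESeq2 (8.23%). The calls were lost when either Control or either OSMI-2 library was left out. For the Combination against AT7519 the reported 17 calls became 11 with equal totals, 10 with equal upper quartiles, 10 after quantile normalisation and 2 in limma without the trend, and ranged between 7 and 15 when a library was left out. The interaction had 0 calls, and 1 lower call with DESeq2 (3.72% of all genes lower). The count also changed when AT7519 replicate 2 was left out.

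The direction was less stable than the number of calls. Scaled to mitochondrial mRNAs, 13 of the 30 calls with AT7519 against Control were kept and 17 turned sign. For the Combination, 13 of 28 calls against Control were kept and 15 turned, and 13 of 31 against OSMI-2 were kept and 18 turned. Of the named changes, 15 turned sign. With AT7519 against Control they were GTF2A2 (-0.371), POLR2K (-0.278), POLR2F (-0.227), POLR2I (-0.198), POLR2E (-0.103) and POLR2L (-0.075). With the Combination against Control they were POLR2J (-0.507), TAF6 (-0.482), POLR2F (-0.472), POLR2I (-0.426), POLR2E (-0.372) and POLR2L (-0.357). With the Combination against OSMI-2 they were POLR2F (-0.120), POLR2E (-0.061) and POLR2L (-0.004). The cause was not tested.

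Labels number the replicates without saying that a number marks a shared culture or day. Deviations of same-numbered libraries correlated at 0.0207 to 0.123, so the numbers were not taken as pairs. With the replicate block the interaction had 1 call, GTF2E1 (adjusted p = 0.0424), TAF8 was also called higher with the Combination than with AT7519 (adjusted p = 0.0272), TAF12 was called lower with the Combination than in Control (adjusted p = 0.0342), and POLR2H lost its call there. With 2 libraries a group, a group left with 1 library was assumed to vary like the others and a change that was not called may still be present.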

Other observations

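On the deposited scale 26.3% of all genes rose and 27.6% fell with the Combination against Control, and 26.0% rose and 27.2% fell with AT7519. Of 14 Pol I subunits and factors, 2 rose and 7 fell with the Combination against Control, and 4 rose and 6 fell with AT7519. POLR1B, the second-largest Pol I subunit, averaged 2645 ± 88.6 normalised counts with the Combination, 4087 ± 278.3 with AT7519, 4982 ± 227.1 with OSMI-2 and 6527 ± 387.5 in Control (SD, n = 2 each). It was lower with OSMI-2 alone as well (log2 change -0.39, adjusted p = 0.0362). TAF1D, a subunit of the Pol I factor SL1, rose on the deposited scale (log2 change 0.78 with the Combination and 1.42 with AT7519). On the mitochondrial scale it stood at -0.20 with the Combination and at 0.50 with AT7519. The median of the list was -0.27 with the Combination and -0.16 with AT7519. Of 26 Pol III subunits and factors, 2 rose and 16 fell with the Combination, and 3 rose and 10 fell with AT7519. SNAPC1, of the complex that starts snRNA genes, fell the most (-1.78 with the Combination and -1.68 with AT7519), and the median of the list was -0.32 with the Combination and -0.12 with AT7519. POLR3G fell with OSMI-2 alone (-0.64, adjusted p = 0.0241).

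Of 30 Mediator genes, 4 rose and 18 fell with the Combination (26.3% and 27.6% of all genes), and 7 rose and 10 fell with AT7519 (26.0% and 27.2%). The medians were -0.33 with the Combination and -0.089 with AT7519. MED13, of the kinase module, averaged 2683 ± 64.4 normalised counts with the Combination, 3348 ± 149.5 with AT7519, 11141 ± 327.7 with OSMI-2 and 10814 ± 599.9 in Control (SD, n = 2 each). MED18 fell by 2.61 with the Combination and by 1.65 with AT7519. After quantile normalisation the Mediator calls with AT7519 were 7 higher and 7 lower, and on the mitochondrial scale 0 and 29, where 75.6% of all genes were lower. MED26, which docks elongation factors, rose by 0.57 with the Combination and by 0.91 with AT7519, against -0.40 and -0.004 on the mitochondrial scale. With the Combination against AT7519, 12 of 30 Mediator genes fell and 0 rose, against 12.5% and 7.21% of all genes. RPRD1B, which binds the C-terminal domain of Pol II, had an interaction of -0.65 (adjusted p = 0.0377).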
